A study of Mus musculus with 7 samples.

Results

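Chemokine genes encode small secreted or membrane-anchored proteins that guide the movement of leukocytes and other cells. The set was taken from the RefSeq gene table of the mouse build GRCm38.p6, which is mm10, as all protein-coding genes whose symbol is Ccl or Cxcl and a digit, together with Xcl1 and Cx3cl1. It had 39 members among 21900 protein-coding genes. Of these, 38 were placed on 8 chromosomes. Ccl21c is listed on a scaffold without a position on chromosome 4, so it could not be set against any domain and enters no count below.

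CUT&RUN, which releases the DNA around an antibody-bound protein with a tethered nuclease, was applied to mouse embryonic fibroblasts labelled iMEF. The 7 libraries targeted H3K14ac (1 library), H3K9me2 (1 library with antibody ab1220 and 1 with 39041), Lamin B1 (2 libraries) and, as the control, IgG (2 libraries). No treatment, time or genotype separates the libraries, the lines are described as independently derived from a single mouse colony, and wild type is given only in the name of the deposited list. The values below come from that list of 1437 lamin-associated domains (LADs), stretches of chromatin in contact with the nuclear lamina under the nuclear envelope, which was read as the merged result of the Lamin B1 libraries. The list gives positions only, so the depth is unknown, no value has a replicate error, no test between conditions was possible, and the fibroblast identity of the cells could not be checked against marker genes.

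Chemokines act through G protein-coupled receptors on the cells they attract. Inflammatory chemokines are induced by signals such as interleukin-1, tumour necrosis factor and interferons, in fibroblasts as well as in immune cells, whereas homeostatic chemokines are made steadily and place lymphocytes and progenitor cells in tissues. Many of the inflammatory genes arose by tandem duplication and lie side by side. Chromatin at the lamina is mostly transcriptionally silent.

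Chemokine genes lay almost entirely outside LADs. Of the 38 placed genes, only Cxcl13 had its midpoint in a LAD, which is 1 of 38, or 2.63%. Among all 21129 protein-coding genes with a midpoint between the first and last LAD of their chromosome, the share was 24.6%. On the 8 chromosomes that carry chemokine genes it was 23.2%, not weighted by the number of chemokine genes on each. Chromosome 11, with 12 of the 38 genes, had 8.22%, chromosome 5, with 10, had 17.6%, and chromosome 4, with 6, had 23.1%. Olfactory and vomeronasal receptor genes are counted in all of these shares. The 38 genes fall into 16 loci when genes at most 500 kb apart are counted together, and 1 of the 16 loci had a gene in a LAD. Genes of a locus lie close together and are not independent, so these shares are given as counts without a test. Taking the transcription start, either gene end, the whole gene or any overlap kept the count at 1 or 2 genes, the other being Ccl21b. With any overlap counted, it was 2 of 38 (5.26%) against 26.0% of all protein-coding genes. Joining LADs that are at most 300 kb apart, a setting chosen after the positions were seen, raised the count to 8 of 38, or 21.1%, against 29.2% of all protein-coding genes. The 7 genes gained were Ccl25 on chromosome 8, which joining at 250 kb already took in (2 of 38), and the 6 genes from Ccl2 to Ccl1 on chromosome 11.

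The 37 genes outside LADs were at moderate distances from a border. The nearest border was a median of 459 kb away from their midpoints, with the middle 50% between 179 and 643 kb. For all 15923 protein-coding genes outside LADs the median was 760 kb and the middle 50% ran from 250.3 to 1733 kb. A border within 100 kb was found for 6 of the 37 chemokine genes (16.2%), where the share over all genes outside LADs was 12.6%. Within 250 kb it was 11 of 37 (29.7%) against 25.0%, so the shares near a border were close to those of other genes outside LADs. The highest value, 1527 kb at Ccl24, was below the upper quartile of all genes.

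**Figure D1:**
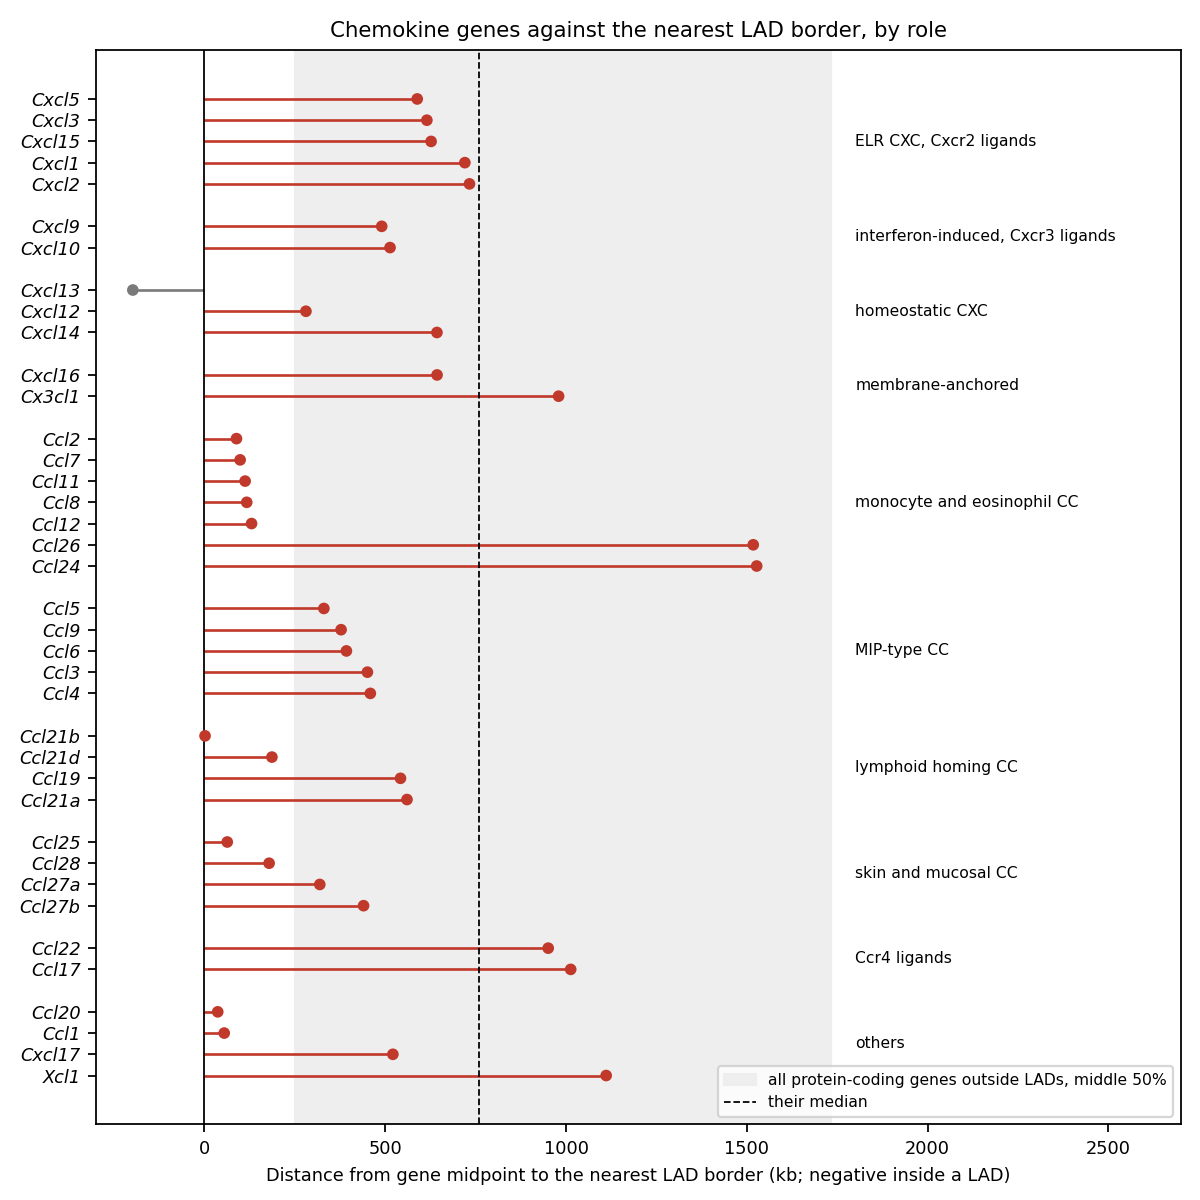
Distance in kb from the midpoint of each of the 38 placed chemokine genes to the nearest LAD border, grouped by role (points; negative values are inside a LAD), with the median (dashed line, 760 kb) and the middle 50% (pale band) of all protein-coding genes outside LADs. Cxcl13 is the only gene on the negative side, and Ccl21b lies at the border.

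The CXC chemokines with the Glu-Leu-Arg motif, which attract neutrophils through Cxcr2, were all outside. Cxcl5, Cxcl3, Cxcl15, Cxcl1 and Cxcl2 lie within 147 kb of each other on chromosome 5 (90759298 to 90905938, mm10). The LAD-free gap that holds them measured 1.51 Mb, from 90172027 to 91684521. Their distances to the nearest border ran from 588 kb at Cxcl5 to 733 kb at Cxcl2, and the 1 Mb around each midpoint held no LAD base. The platelet chemokine genes Ppbp and Pf4, whose symbols fall outside the rule, lie between Cxcl5 and Cxcl3, at 597 and 601 kb from a border. The same gap holds 20 protein-coding genes in all. Alb, Afp and Afm of the albumin family lie on one side of the chemokine genes, and Epgn, Ereg, Areg and Btc, which encode ligands of the epidermal growth factor receptor, on the other.

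The interferon-induced ligands of Cxcr3, which recruit activated T cells, were also outside. Cxcl9 (92321331 to 92328079) was 490 kb and Cxcl10 (92346638 to 92348889) 513 kb from the nearest border, in a gap of 1.50 Mb with 24 protein-coding genes. Cxcl11, which the table lists as a transcribed pseudogene and which is therefore no member, followed at 527 kb. A LAD of 150.0 kb (91684522 to 91834521) without the midpoint of any protein-coding gene separated this gap from that of the Cxcr2 ligands. Sdad1 and Art3, the protein-coding neighbours on either side of the pair, lay in the gap with it.

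Cxcl13 was the exception. It encodes the ligand of Cxcr5 that draws B cells into lymphoid follicles. The whole gene (chromosome 5, 95956939 to 95961068) lay in a LAD of 2.82 Mb, from 93332017 to 96157007, at 198 kb from the nearer border. LADs made up 88.8% of the 1 Mb around it. That domain held 32 protein-coding genes, most of them of the Pramel family, and the neighbours E330014E10Rik and Cnot6l were inside as well. Cxcl13 is 3.61 Mb from Cxcl10 and shares no gap with the other chemokine genes of chromosome 5. With 1 of 10 chemokine genes (10%) in LADs, chromosome 5 was not far from the 17.6% of all its protein-coding genes.

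The promoters of Cxcl13 and of chemokine genes outside LADs are shown for comparison, from 250 bases before to 50 bases after the annotated start (RefSeq, GRCm38.p6, written 5′ to 3′ along the gene). Capitals mark matches to the TATA box letters TATAAA, to the interferon-stimulated response element (ISRE) letters GAAANNGAAA and to the kappa B consensus of NF-kappa B, searched on both strands. Cxcl13 is at chr5:95956689-95956988 (plus strand), Cxcl10 at chr5:92348840-92349139 (minus strand), Cxcl2 at chr5:90903649-90903948 (plus strand) and Ccl12, of the chromosome 11 cluster described next, at chr11:82101595-82101894 (plus strand).
Cxcl13: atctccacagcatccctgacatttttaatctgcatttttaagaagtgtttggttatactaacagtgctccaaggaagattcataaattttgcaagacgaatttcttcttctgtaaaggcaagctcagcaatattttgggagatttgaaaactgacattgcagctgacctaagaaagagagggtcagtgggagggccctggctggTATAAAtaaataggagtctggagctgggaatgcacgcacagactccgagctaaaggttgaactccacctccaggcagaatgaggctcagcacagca
Cxcl10: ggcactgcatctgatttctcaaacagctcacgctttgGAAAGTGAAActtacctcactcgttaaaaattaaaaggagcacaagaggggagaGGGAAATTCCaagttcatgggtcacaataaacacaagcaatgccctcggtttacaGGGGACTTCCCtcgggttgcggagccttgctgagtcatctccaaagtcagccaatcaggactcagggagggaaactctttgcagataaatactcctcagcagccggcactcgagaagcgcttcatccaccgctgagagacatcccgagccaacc
Cxcl2: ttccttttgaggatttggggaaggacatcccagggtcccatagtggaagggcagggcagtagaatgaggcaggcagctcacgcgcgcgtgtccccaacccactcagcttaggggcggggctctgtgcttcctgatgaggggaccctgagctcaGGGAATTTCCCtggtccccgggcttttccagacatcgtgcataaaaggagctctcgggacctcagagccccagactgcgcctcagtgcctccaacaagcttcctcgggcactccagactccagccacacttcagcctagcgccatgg
Ccl12: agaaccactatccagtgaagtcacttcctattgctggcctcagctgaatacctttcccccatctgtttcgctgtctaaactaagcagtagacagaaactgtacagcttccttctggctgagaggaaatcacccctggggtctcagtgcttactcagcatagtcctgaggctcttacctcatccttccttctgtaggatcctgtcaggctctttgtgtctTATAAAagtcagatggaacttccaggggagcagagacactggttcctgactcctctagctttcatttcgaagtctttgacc

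The Cxcl13 window had a TATA box match at position -46 from the start, no match to either induced motif and 3 CpG dinucleotides. Cxcl10 carried an ISRE match and overlapping and separate kappa B matches, with 10 CpG. Cxcl2 had a kappa B match and 11 CpG, and Ccl12 a TATA box match with 2 CpG. The promoter table holds 28 of the 38 placed chemokine genes, and the other 10 are Ccl2, Ccl7, Ccl11, Ccl5, Ccl4, Cxcl5, Ccl24, Ccl26, Cxcl16 and Cxcl17. Over the 28 genes with an entry, TATAAA was present in 8 (28.6%), against 13.3% of 17492 protein-coding genes with a window of the same length. The kappa B consensus was present in 7 (25%) against 8.86%, in Ccl1, Ccl20, Ccl9, Cxcl1, Cxcl10, Cxcl2 and Cxcl3. The ISRE letters were present in 3 (10.7%) against 3.40%, in Ccl19, Cxcl10 and Cxcl14. A match is only a run of letters, and duplicated genes such as Cxcl1, Cxcl2 and Cxcl3 share ancestry. No motif separated Cxcl13 from the rest, since 7 of the 8 genes with TATAAA lay outside LADs.

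Many of the chemokine promoters with an entry were low in CpG, although the number ran from 2 to 52. In the genome as a whole, genes with low-CpG promoters were more often in LADs than others. The median was 5 CpG in 300 bases over the 28 genes and 13 over the 16985 protein-coding genes that have an entry and a midpoint between the first and last LAD of their chromosome, the set behind the CpG shares of all genes. At most 5 CpG were present in 15 of the 28 (53.6%), against 5648 of the 16985 (33.3%). Among these 5648 genes, 52.1% had their transcription start in a LAD, and without olfactory and vomeronasal receptor genes it was 41.2%. With over 5 CpG the share was 10.9%. Of the 15 chemokine genes with at most 5 CpG, only Cxcl13 had its start in a LAD, 6.67%. Xcl1, Ccl20, Cxcl15, Cxcl9, Ccl17, Ccl12, Ccl8, Ccl9, Ccl6 and Ccl3, each with 2 to 4 CpG, were among the 14 that did not. Some of the 14 share a gap and are not independent. Ccl12, Ccl8, Ccl9, Ccl6 and Ccl3 are on chromosome 11, where 8.22% of all protein-coding genes had their midpoint in a LAD. The share of low-CpG genes was not computed per chromosome. The limit of 5 CpG was set with the LAD positions already known.

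The other CXC genes lay apart from the clusters. Cxcl12, which retains stem cells and progenitors through Cxcr4, lay 281 kb from the nearest border on chromosome 6 (117168535 to 117181368). The nearest LAD measured 77.5 kb and held the midpoint of no protein-coding gene. Tmem72, the neighbour of Cxcl12 on that side, was in another LAD. Cxcl14 on chromosome 13 was 643 kb from a border in a gap of 6.03 Mb. Cxcl17, a mucosal chemokine of chromosome 7, was 521 kb from a border in a gap of 1.87 Mb. The membrane-anchored chemokines, which can also hold cells by adhesion, were outside as well. Cxcl16 on chromosome 11 was at 643 kb, the same distance as Cxcl14 within the resolution of the borders, and Cx3cl1 on chromosome 8 was at 979 kb. Cx3cl1 lies between the Ccr4 ligand genes Ccl22, at 951 kb, and Ccl17, at 1013 kb, in a gap of 2.19 Mb, and no LAD base lay in the 1 Mb around any of the 3 genes.

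The first run of CC genes on chromosome 11, from Ccl2 to Ccl1, lay in a short gap between LADs. Ccl2, Ccl7, Ccl11, Ccl12, Ccl8 and Ccl1 span 144 kb (82035577 to 82179812). They lay in a gap of 285 kb, from 81947915 to 82232913, between a LAD of 990.0 kb (80957918 to 81947914) and a LAD of 497 kb (82232914 to 82730411). These 6 were the only protein-coding genes with a midpoint in the gap, which therefore holds the whole chemokine run and no other protein-coding gene. Both neighbours, 1700071K01Rik before Ccl2 and Tmem132e after Ccl1, lay inside the flanking LADs.

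Each gene of this run was near a border without touching it. Ccl1, which encodes a ligand of Ccr8, was nearest at 54.7 kb. Ccl2, the main ligand of Ccr2 on monocytes, was at 88.6 kb and Ccl7, another ligand of Ccr2, at 98.7 kb. The eotaxin gene Ccl11 was at 112 kb, Ccl8 at 117 kb and Ccl12, near the middle of the gap, at 130.3 kb. None of the 6 overlapped a LAD by any base. The list moves in steps of about 2.5 kb, but how accurately its borders were called is unknown. LADs made up 71.5% of the 1 Mb around each of the 6 genes. The joining of LADs at most 300 kb apart closes this gap, puts all 6 genes inside and so brings the chromosome from 0 of 12 to 6 of 12 chemokine genes (50%), against 11.2% of its protein-coding genes. Joining at 250 kb left the gap open.

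The list had 73 gaps whose length was within 25 kb (10 steps of 2.5 kb) of this one, itself included. That range was chosen after the length of this gap was known. The 73 gaps had a median of 2 protein-coding genes, and 7 of them (9.59%) held 6 or more. With 21.1 genes per Mb, the gap was less dense than the 242 kb gap of Ccl25, which had 41.2. Of all protein-coding genes outside LADs, 6.05% lay in gaps of at most 300 kb, against 7 of the 37 chemokine genes, of which 6 are this run and the other is Ccl25.

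The second run of CC genes lies 1.35 Mb further along chromosome 11. Ccl5, Ccl9, Ccl6, Ccl3 and Ccl4 encode attractants of T cells, monocytes and other leukocytes. They span 139 kb (83525778 to 83664683) near the beginning of a gap of 6.04 Mb with 88 protein-coding genes. The distance to the nearest border rose along the run, from 330.2 kb at Ccl5 to 459 kb at Ccl4. LADs made up 4.13% to 11% of the 1 Mb around these genes, well below the 71.5% of the first run. The LAD of 497 kb after the first run lay between the runs, as did a LAD of 110.0 kb (83087911 to 83197910) with Slfn1 and Slfn4 inside. The table lets Ccl3 and Ccl4 overlap, which moves the midpoint of Ccl4 but not its place in the gap. Of all protein-coding genes of chromosome 11, 8.22% lay in LADs, so 0 of 12 chemokine genes is close to what the chromosome as a whole shows.

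**Figure D2:**
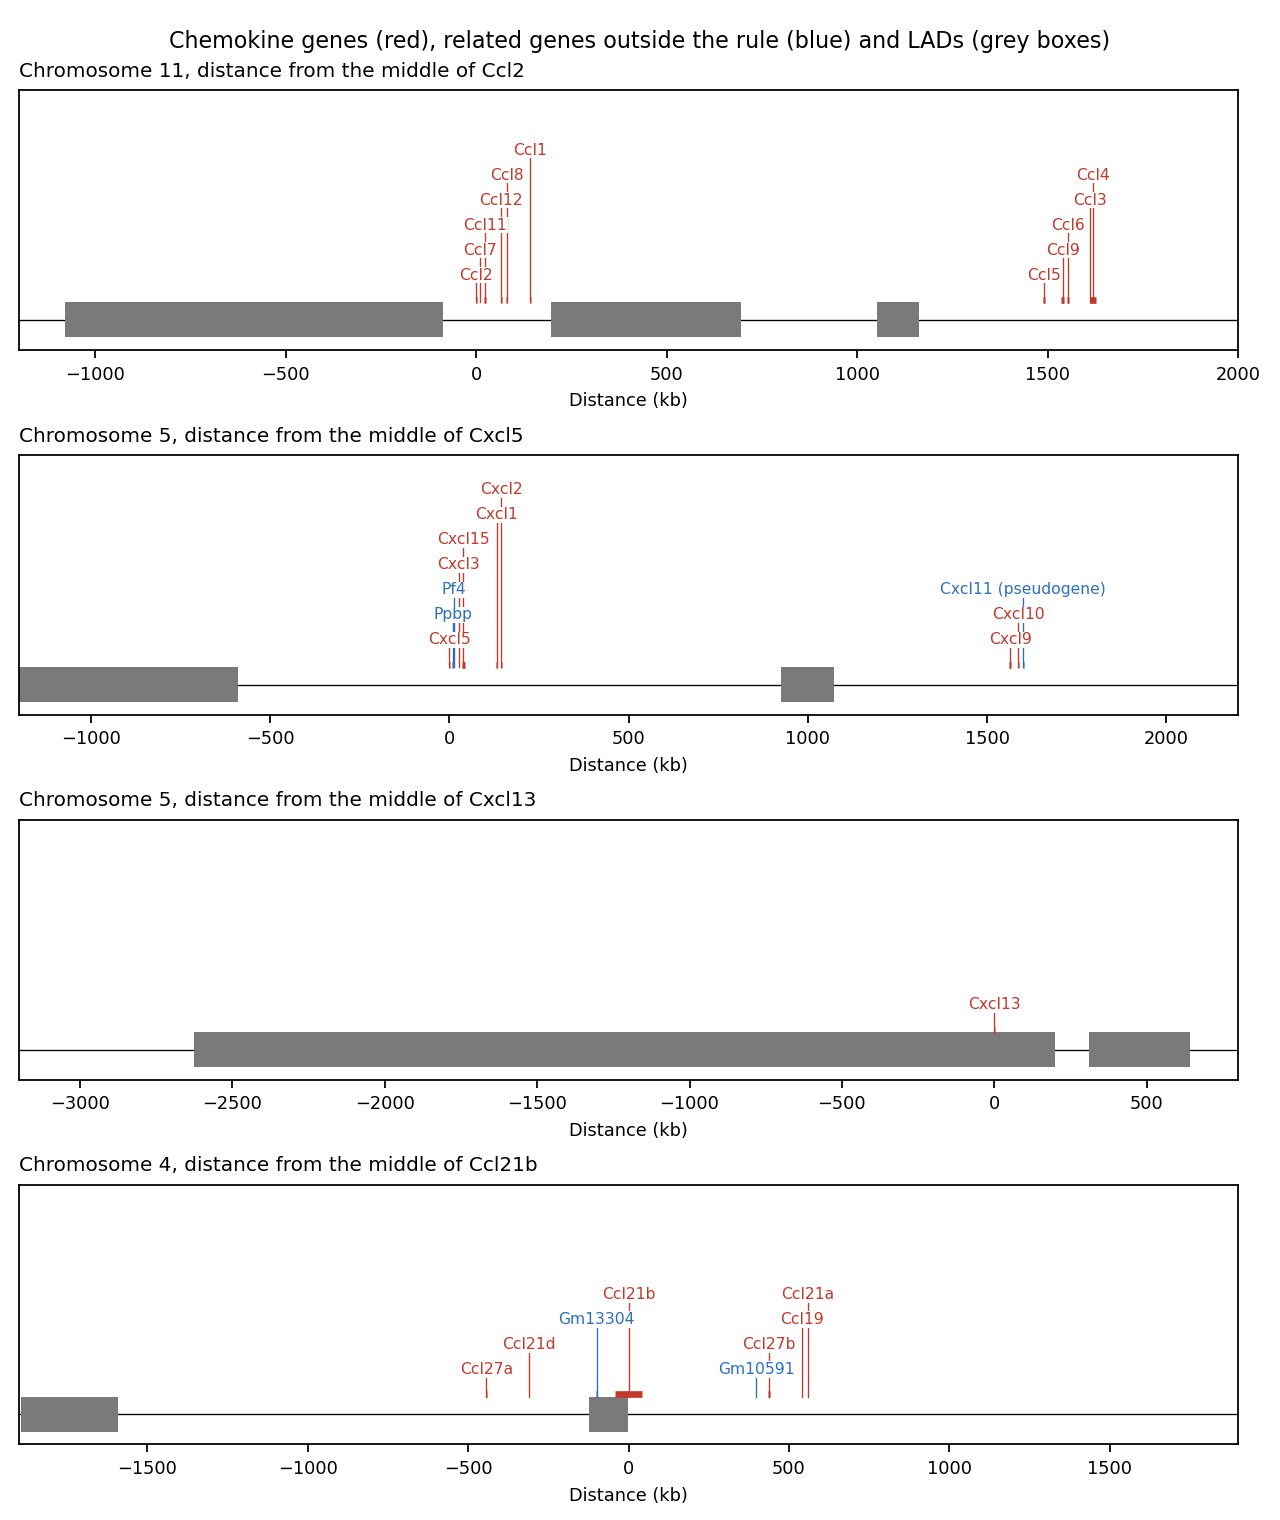
Maps of the chromosome 11, 5 and 4 clusters, with LADs as grey boxes, chemokine genes in red and related genes outside the rule in blue, against distance in kb from the named gene. The run from Ccl2 to Ccl1 lies in a short gap between LADs, Cxcl13 lies inside a long LAD, and the short LAD of chromosome 4 ends within Ccl21b.

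The lymphoid and skin chemokines of chromosome 4 lie in a region of repeated copies. Ccl19 and the Ccl21 genes encode ligands of Ccr7, which bring T cells and dendritic cells into lymph nodes, and the Ccl27 genes encode ligands of Ccr10, which direct T cells to the skin. The 6 placed members span 1005 kb (41769467 to 42773991), and no midpoint was in a LAD, against 23.1% of the protein-coding genes of the chromosome. A short LAD of 122 kb (42090791 to 42213290) lay among them. Ccl27a and Ccl21d were on the proximal side of it, at 319 and 187 kb from the nearest border, and Ccl27b, Ccl19 and Ccl21a on the distal side, at 440.0, 542 and 560.1 kb.

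Ccl21b was the one gene that the domain divided. Its entry in the table runs over 83.7 kb (42173120 to 42256825), 48.0% of it in the LAD, and its midpoint was 1.68 kb outside, which is less than the resolution of the borders. Its annotated start (42173120) was inside. With the start as the position, chromosome 4 had 1 of 6 genes in LADs (16.7%), and all chemokine genes with a promoter entry 2 of 28 (7.14%), where 24.6% of the 16985 protein-coding genes had their start inside. This start has a promoter window with 45 CpG, unlike the 5 CpG of Ccl21a and Ccl21d, and the aligned identity to Ccl21a was 46.7%.

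Gm13304, a protein-coding gene that the table lists with the Ccl21 synonym 6Ckine but outside the symbol rule, lay wholly in the short LAD (42114787 to 42115917), 24.6 kb from its border. Gm10591, listed with the same synonym (42612123 to 42613253), was 399 kb outside. With both added to the members, a choice made after their positions were seen, 2 of 40 genes (5%) were in LADs, and 1 of 8 on chromosome 4 (12.5%). Copies were looked for by the synonym 6Ckine only. Gm13306 and Gm13305, the other protein-coding genes with a midpoint in the short LAD, were not examined. The promoter windows of Gm13304 and Gm10591 were identical over all 300 bases. The windows of Ccl21d, outside the LAD (chr4:41903363-41903662, plus strand), and of Gm13304, inside it (chr4:42114537-42114836, plus strand), are shown because they differ at a single base, T143C, in capitals, with positions counted from 1 at the 5′ end of the window.
Ccl21d: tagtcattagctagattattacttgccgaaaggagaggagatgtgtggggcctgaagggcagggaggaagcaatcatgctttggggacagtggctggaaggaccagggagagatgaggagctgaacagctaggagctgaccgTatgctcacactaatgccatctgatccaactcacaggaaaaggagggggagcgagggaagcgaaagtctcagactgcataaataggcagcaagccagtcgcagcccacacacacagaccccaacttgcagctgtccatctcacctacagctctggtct
Gm13304: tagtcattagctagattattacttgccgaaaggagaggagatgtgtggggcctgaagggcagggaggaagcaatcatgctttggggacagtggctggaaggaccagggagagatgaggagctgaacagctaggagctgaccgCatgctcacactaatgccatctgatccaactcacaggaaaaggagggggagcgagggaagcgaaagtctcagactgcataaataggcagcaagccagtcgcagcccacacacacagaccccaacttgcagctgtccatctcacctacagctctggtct

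Short reads from such copies cannot be told apart by sequence over most of this length. How reads with several equally good positions were treated is not given in the sources used here, and its effect on the short LAD was not tested. The placement of Ccl21d and of the Ccl21 copies like it is therefore uncertain. The promoter windows of Ccl27a and Ccl27b were less alike, with an aligned identity of 64.6%. Leaving out Ccl19 and all Ccl21 and Ccl27 genes gave 1 of 32 chemokine genes in LADs (3.12%).

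Of the remaining genes, Ccl25 and Ccl28 sit in LAD-rich surroundings. Ccl25, the ligand of Ccr9 in thymus and gut (chromosome 8, 4325205 to 4360020), was in a gap of 242 kb with 10 protein-coding genes, 63.1 kb from a border, and LADs made up 66.3% of its 1 Mb window. Ccl28, a mucosal ligand of Ccr10 (chromosome 13, 119623819 to 119654359), was in a gap of 450.0 kb with 9 genes, at 179 kb from a border, with 55.0% of its window in LADs. Ccl20, the ligand of Ccr6 (chromosome 1, 83116766 to 83119167), was 36.8 kb from a border, and its next neighbour Daw1 lay in the LAD beyond it. At the other end, Ccl26 and Ccl24, eosinophil attractants of chromosome 5, were at 1518 and 1527 kb, and Xcl1, which attracts cross-presenting dendritic cells, was at 1111 kb in a gap of 6.83 Mb, the longest that held a chemokine gene.

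The share of LAD bases around the genes varied widely between loci. No LAD base lay in the 1 Mb around 17 of the 37 genes outside LADs (45.9%), against 60.9% of all protein-coding genes outside LADs. More than 50% was in LADs for 8 of the 37 (21.6%), namely the run from Ccl2 to Ccl1, Ccl25 and Ccl28, against 7.42%. Because 6 of these 8 genes are in a single gap, the share rests on 3 loci.

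**Figure D3:**
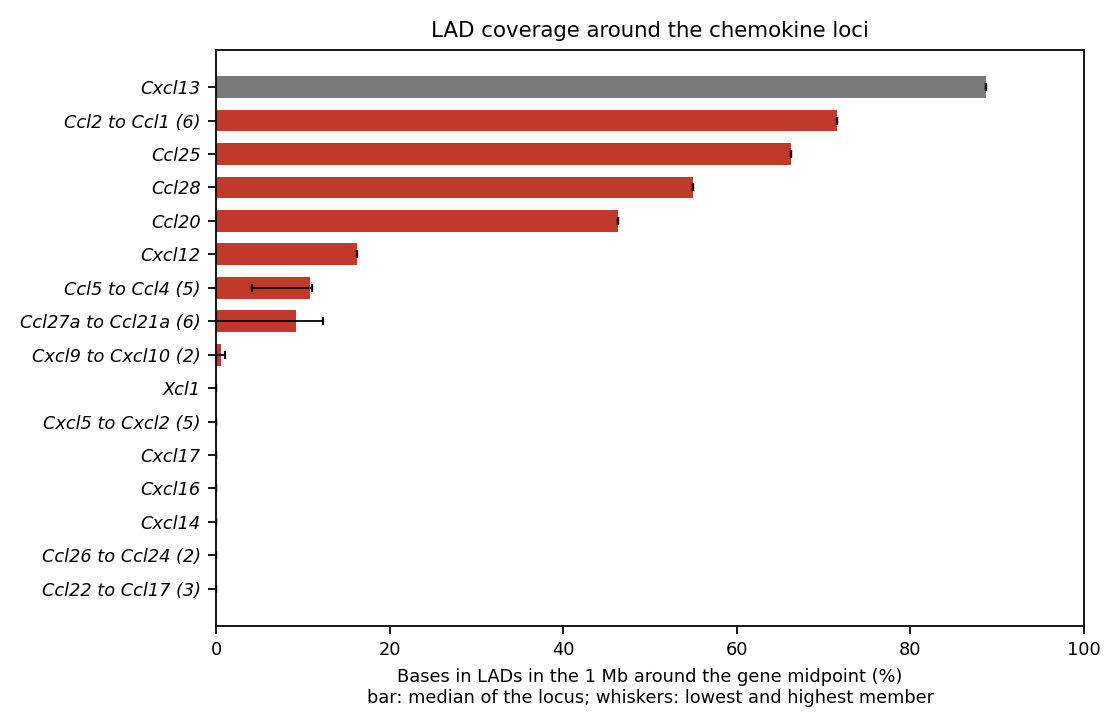
Percentage of bases in LADs in the 1 Mb around the gene midpoints of the 16 chemokine loci (bars, median of the locus; whiskers, lowest and highest member; number of genes in brackets). Cxcl13 (grey), inside a LAD, has 88.8%, followed by the run from Ccl2 to Ccl1 with 71.5%.

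The genes of the receptors were placed in the same way. Of the 23 receptor genes counted here, 8 had their midpoint in a LAD (34.8%), against the 24.6% of all protein-coding genes given above. Of these 8, 5 belong to the cluster on chromosome 9, where 28.4% of protein-coding genes were in LADs, so the share rests on few loci, and the difference between receptors and ligands was not tested. The cluster was split by LADs. Ccr9 lay in a LAD of 215 kb (123576194 to 123791193), 15.9 kb from its border. Cxcr6 and Xcr1 lay in the next gap of 132 kb, at 17.9 and 66.0 kb from a border. Ccr1, Ccr1l1, Ccr3 and Ccr2 followed in a LAD of 600.0 kb (123923693 to 124523690), at 41.7 to 182 kb from its border.

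The other receptors inside LADs were Cxcr4 and Ackr1 on chromosome 1 and Ackr4 on chromosome 9. Cxcr4, the receptor of Cxcl12, lay in a LAD of 2.22 Mb, 136 kb from its border. Ackr1, an atypical receptor that binds many inflammatory chemokines, was deep inside, at 778 kb from the border of a LAD of 4.14 Mb. Ackr4, which takes up Ccl19, Ccl21 and Ccl25, was 26.6 kb inside a LAD of 645 kb. The 15 receptors outside ranged from 17.9 kb at Cxcr6 to 7296 kb at Ccr10, with Ccr7 at 5319 kb.

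For 16 signalling receptors, 1 known ligand gene each was set beside the receptor gene, and both were outside LADs in 10 of the 16 pairs. These were Cxcl10 and Cxcr3 (receptor gene at 1526 kb), Cxcl2 and Cxcr2 (388 kb), Cx3cl1 and Cx3cr1 (180 kb), Ccl20 and Ccr6 (679 kb), Ccl22 and Ccr4 (104 kb), Ccl1 and Ccr8 (215 kb), Ccl21a and Ccr7, Ccl28 and Ccr10, Cxcl16 and Cxcr6, and Xcl1 and Xcr1. In 5 pairs the ligand gene was outside and the receptor gene inside, namely Ccl2 and Ccr2, Ccl11 and Ccr3, Ccl3 and Ccr1, Ccl25 and Ccr9, and Cxcl12 and Cxcr4. For Cxcl13 the order was reversed, as its receptor gene Cxcr5 lay 2017 kb outside. Since Cxcl13 was the only ligand gene inside, the place of the receptor gene sets the count for every other pair. Receptor promoters were also often low in CpG, with a median of 3.5 over the 20 receptor genes with an entry. At most 5 CpG were present in 14 of the 20 (70%), and of these 14, 6 had their start in a LAD (42.9%). Beside this stand the 1 of 15 chemokine genes and the 52.1% of all such protein-coding genes. Without olfactory and vomeronasal receptor genes the latter was 41.2%. Of the 6 receptor genes, Ccr1, Ccr1l1, Ccr3 and Ccr2 lie in a single LAD.

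**Figure D4:**
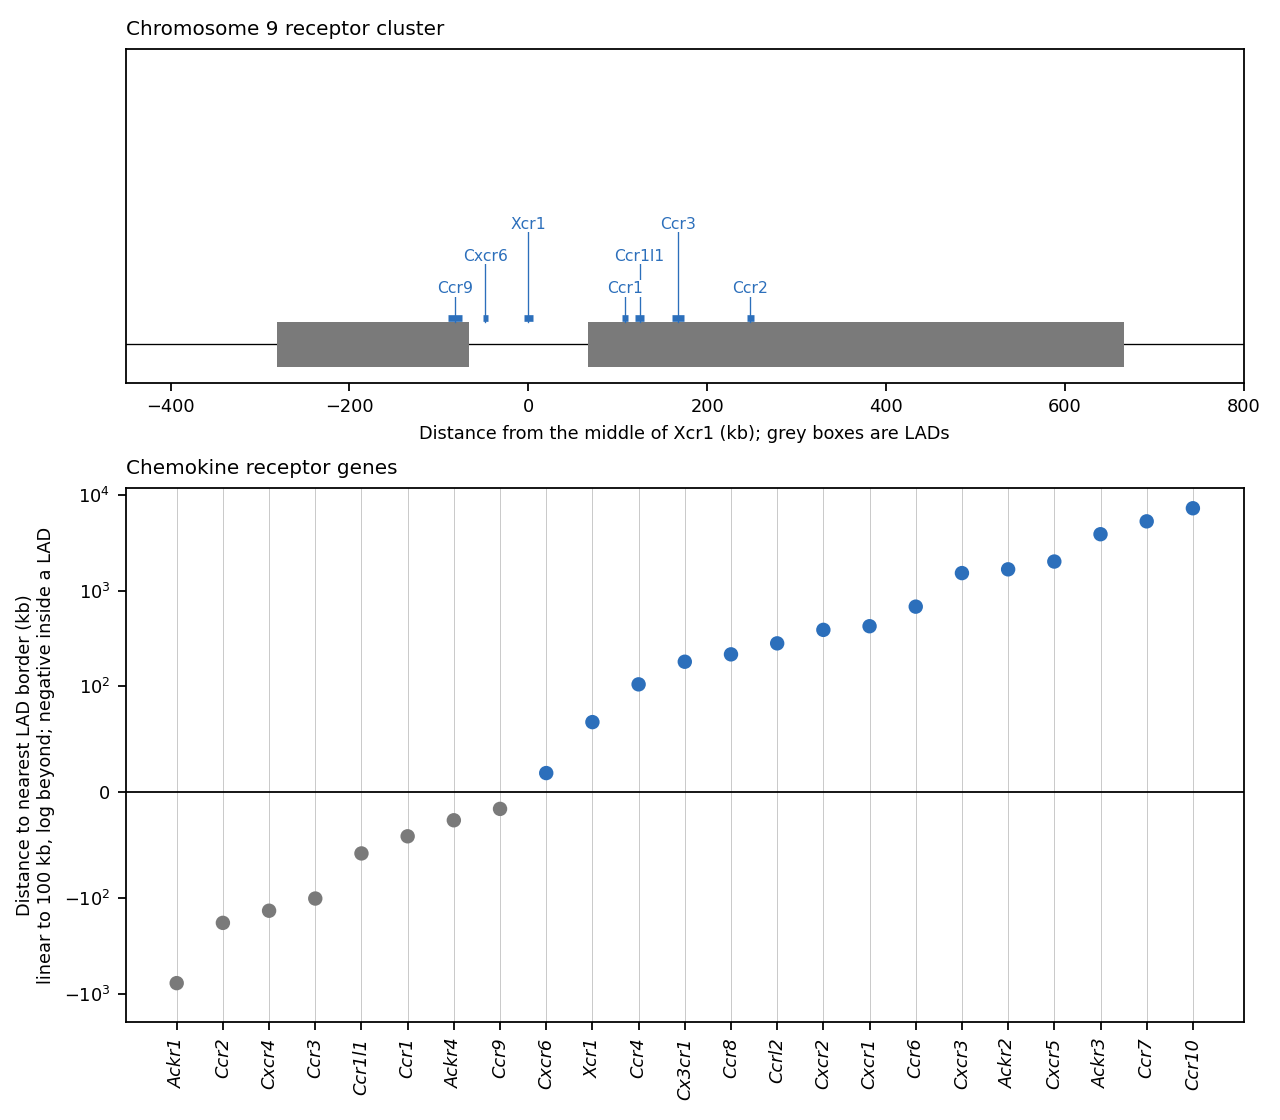
Map of the chromosome 9 receptor cluster (LADs as grey boxes, distance in kb from Xcr1) above the distance in kb of the 23 receptor genes to the nearest LAD border (points; negative and grey inside a LAD; axis linear to 100 kb and logarithmic beyond). Cxcr6 and Xcr1 lie in a short gap, and 8 receptor genes are on the negative side.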

How the data were processed

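LAD positions came from 1 list in BED format that the authors deposited, with 1437 lines. The deposited score column held 0 in every line, so domains carry no signal. The build mm10 and Bowtie2 are given in the submitters' processing notes, without a version. The domain caller, its threshold and the use of IgG or spike-in DNA are not given in the sources used here. Each of the 1437 domains had a length that was a multiple of 2.5 kb to within 125 bp, which sets the finest possible resolution of borders. How accurately borders were called is unknown. A reaction took 500000 cells, per the labels' protocols.

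Genes were placed by midpoint with Python 3.11.15 and pandas 2.3.3, and placement was tested on simulated data. Genes listed on scaffolds were left out (21774 of 21900 protein-coding genes remained), and 21129 had their midpoint between the first and last LAD of a chromosome. Promoter windows came from RefSeq (GRCm38.p6). The first listed start was used, CpG were counted on it, and copies were aligned globally with Biopython 1.88. Every member of the symbol rule, flanking genes and the receptor list could be named, except a receptor gene that is not reported here and enters no receptor count. Members and lists were chosen with earlier results of these data known. Alternatives were the gene position used, the minimum LAD length, the joining distance, loci in place of genes, and the exclusion or addition of genes.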

Additional observations from a re-analysis of the deposited data

How the results depend on the processing

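Of 61 recomputed shares, 59 stayed within the exact 95% binomial interval of the main value, which treats genes as independent and is wide for so few. For the 1 of 38 chemokine genes in LADs (2.63%) it ran from 0.0666% to 13.8%, and the alternatives other than joining at 300 kb gave 2.5% to 7.14%. The lowest added Pf4 and Ppbp, both outside. Adding the Ccl21 copies Gm13304 and Gm10591, chosen after seeing the data, gave 2 of 40 (5%), and all 4 genes 2 of 42 (4.76%). Joining at 250 kb closed the gap of Ccl25 and gave 2 of 38 (5.26%). The 2 that left it both joined LADs at most 300 kb apart, a distance chosen after seeing the data: 21.1% of all chemokine genes and 50% of those on chromosome 11 were then inside, by construction, because the gap from Ccl2 to Ccl1 is closed and, in the first of these shares, that of Ccl25 too. The receptor share was 30.4% to 43.5% under its alternatives, against 34.8%. No paired analysis was possible because the list merges the libraries and gives no value per replicate. For lack of such values no replicate could be left out in turn. The depth is unknown, which limits what can be said of short LADs such as those of chromosomes 4, 5 and 11.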

Other observations

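Several of the LADs next to the chemokine loci held few genes. Of the LADs beside the run from Ccl2 to Ccl1, the proximal one held Asic2, which encodes a neuronal ion channel, and 1700071K01Rik, and the distal one held Tmem132e. Beside the Cxcr2 ligands, a LAD of 1.37 Mb held Slc4a4, Gc, Npffr2 and Adamts3. The genes of the gap from Ccl22 to Ccl17 were bordered by a LAD of 7.95 Mb with only Cdh8 and Cdh11.

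Some neighbouring LADs held gene families of their own. The LAD before Ccl25 contained 7 Cd209 genes, which encode C-type lectins of myeloid cells, and no other protein-coding gene. The LAD after the gap of Cxcl17 held 14 protein-coding genes, among them cytochrome P450 genes of the Cyp2a and Cyp2b groups, and the one before it 104. The LAD before the gap of Ccl22 held 13, among them Mmp2, Slc6a2 and carboxylesterase genes from Ces1a to Ces1h.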
